A study of Mus musculus with 12 samples.

Results

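Colonic adenomas of Tet1-null mice were compared, gene by gene, with adenomas of double-heterozygous mice, which carried a single mutant copy of Tet1 and a single Tdg N151A allele. Both groups had 3 RNA-seq libraries, 6 of the 12 in the series, and 15150 of the 25705 genes in the deposited table were tested because they reached an FPKM of at least 1 in 3 or more of the 12 libraries. FPKM corrects the number of sequenced fragments of a gene for the length of its transcript and the size of the library. The Tet1-null mice were Tet1-/- Tdg+/+ ApcMin/+. The double-heterozygous mice were Tet1+/- TdgN151A/+ ApcMin/+. The remaining groups, with 3 libraries each, served only to estimate the spread and as points of orientation: Tdg-heterozygous mice (Tet1+/+ TdgN151A/+ ApcMin/+) and controls (Tet1+/+ Tdg+/+ ApcMin/+). All mice carried ApcMin, a truncating allele of Apc that gives rise to intestinal adenomas, were of strain C57BL/6J and were killed at 150 to 160 days of age. The labels give neither the construction of the Tet1 allele nor the number of adenomas or mice behind a library, so p-values measure the spread between these libraries. The groups differ at both loci, and the Tet1 dose and the Tdg allele cannot be told apart in this comparison.

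Tet enzymes oxidise 5-methylcytosine in DNA. The glycosylase encoded by Tdg removes the more oxidised forms, and base excision repair then restores an unmethylated cytosine. N151A replaces an asparagine of the active site of Tdg and abolishes base removal. In the intestine, loss of Apc function keeps Wnt signalling on, which maintains stem cell genes and, in adenomas, Paneth cell genes such as those for lysozyme and alpha-defensins.

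Of 15150 genes tested, 3 were called between Tet1-null and double-heterozygous adenomas (0.0198%), 1 higher (0.0066%) and 2 lower (0.0132%) in Tet1-null adenomas. Calling required an adjusted p under 0.05 in limma, with Benjamini-Hochberg adjustment over all tested genes on log2(FPKM + 1). None of the 3 is a protein-coding gene, and the 1 called higher passed the filter only through the Tet1-null libraries. At an unadjusted p under 0.05 there were 275 genes (1.82%), 110 of them higher (0.726%) and 165 lower (1.09%). The 3 Tet1-null libraries lay wholly above the 3 double-heterozygous libraries for 236 genes (1.56%) and wholly below them for 361 (2.38%), 597 in all (3.94%). These shares are the background for the counts within gene lists given further on, where such genes are said not to overlap. Giving each library a weight estimated from its own scatter raised the called genes to 82, of which 65 were higher and 17 lower. In that fit the Tet1-null libraries numbered 0, 1 and 2 weighed 0.457, 0.256 and 5.25, so the Tet1-null side rested mainly on library 2.

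The 2 genes called lower were processed pseudogenes, intronless copies of a spliced messenger RNA. Gm9855, on chromosome 10 from 42054113 to 42055306 (mm10), matched bases 162 to 1355 of the Tdg-201 transcript over 1194 bases without a gap, with 9 differences (99.2% identity). Gm15920, on chromosome 5 from 130188395 to 130188796, matched Ndufa12-201 over 402 bases with 2 differences (99.5%). Ndufa12 encodes a subunit of mitochondrial complex I and lies 11.6 Mb from Tdg on chromosome 10. The third called gene was Gm25390, an annotated small nuclear RNA of 103 bases on chromosome 10 from 91005741 to 91005843, 8.4 Mb from Tdg. The following stretches, from GENCODE transcripts, show how near the copies are to their parent messages, with the differing bases in capitals, and the whole of Gm25390. The first pair covers positions 1051 to 1114 of Gm9855 and holds 4 of its 9 differences, T1056C, G1084A, A1090G and G1101A (the Tdg base, the position counted from the 5′ end of Gm9855, the Gm9855 base). The other pair covers positions 67 to 130 of Gm15920 and holds A99G.
Gm9855: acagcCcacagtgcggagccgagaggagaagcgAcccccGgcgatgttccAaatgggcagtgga
Tdg-201: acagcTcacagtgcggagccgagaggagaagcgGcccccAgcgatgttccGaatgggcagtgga
Gm15920: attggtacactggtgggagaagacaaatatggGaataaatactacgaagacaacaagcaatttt
Ndufa12-201: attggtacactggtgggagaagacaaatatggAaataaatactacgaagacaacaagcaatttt
Gm25390: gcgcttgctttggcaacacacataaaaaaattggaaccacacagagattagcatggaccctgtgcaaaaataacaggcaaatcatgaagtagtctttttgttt

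Gm9855 was listed at 0 in all 3 Tet1-null libraries and at 8.07, 7.72 and 7.62 FPKM in the double-heterozygous libraries. The groups did not overlap (log2 difference -3.14 on log2(FPKM + 1), SE 0.132, adjusted p = 5.77e-06, limma). The Tdg-heterozygous libraries, which also carry TdgN151A, stood at 7.27, 6.96 and 7.11 FPKM, and the controls at 0.0187, 0 and 0.0434 FPKM. Gm15920 followed the same order of groups. It had 0.281, 0.259 and 0.533 FPKM in Tet1-null libraries and 9.31, 9.75 and 11.9 FPKM in double-heterozygous libraries (log2 difference -3.06, SE 0.180, adjusted p = 5.01e-05, limma). It had 9.74 to 12.7 FPKM in Tdg-heterozygous libraries and at most 0.277 FPKM in controls. Both pseudogenes were thus present above 6 FPKM in the 6 libraries with a TdgN151A allele and below 1 FPKM in the 6 without it. This pattern was known from an earlier analysis.

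The parent genes did not follow this order. Tdg had 39.6, 30.9 and 29.8 FPKM in Tet1-null libraries and 40.1, 36.6 and 35.4 FPKM in double-heterozygous libraries, which overlap (log2 difference -0.16, SE 0.145, adjusted p = 1, limma). Ndufa12 had 96.5, 148.3 and 122.9 FPKM in Tet1-null libraries and 116.9, 130.8 and 123.6 FPKM in double-heterozygous libraries (log2 difference -0.03, SE 0.168). The longest stretch without a difference spans 756 bases between Gm9855 and Tdg-201 and 278 bases between Gm15920 and Ndufa12-201. Reads of 75 nt from these stretches match both copies, and how such reads were assigned is not given in the sources used here, so the levels of copy and parent are uncertain.

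Gm25390 had 45.7, 21.3 and 20.6 FPKM in the Tet1-null group, while the 9 libraries of the other groups listed it at 0 (log2 difference 4.82 against double-heterozygous libraries, SE 0.267, adjusted p = 4.20e-05, limma). Gm25390 passed the filter only through the Tet1-null libraries, so its call describes where it was listed and is no separate support. The table gives no fragment counts behind its FPKM. A small nucleolar RNA gene, Gm24241, 10.1 Mb from Tdg, had 7.68, 7.27 and 7.36 FPKM in Tet1-null libraries, with all double-heterozygous libraries at 0. It also reached 15.1 FPKM in 1 control library and was not called (log2 difference 3.08, SE 0.855, adjusted p = 1), but it was among the 7 genes called when only the 6 libraries compared were fitted. Gm24241 was named after its values were seen, so it is no separate support for Gm25390.

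**Figure D1:**
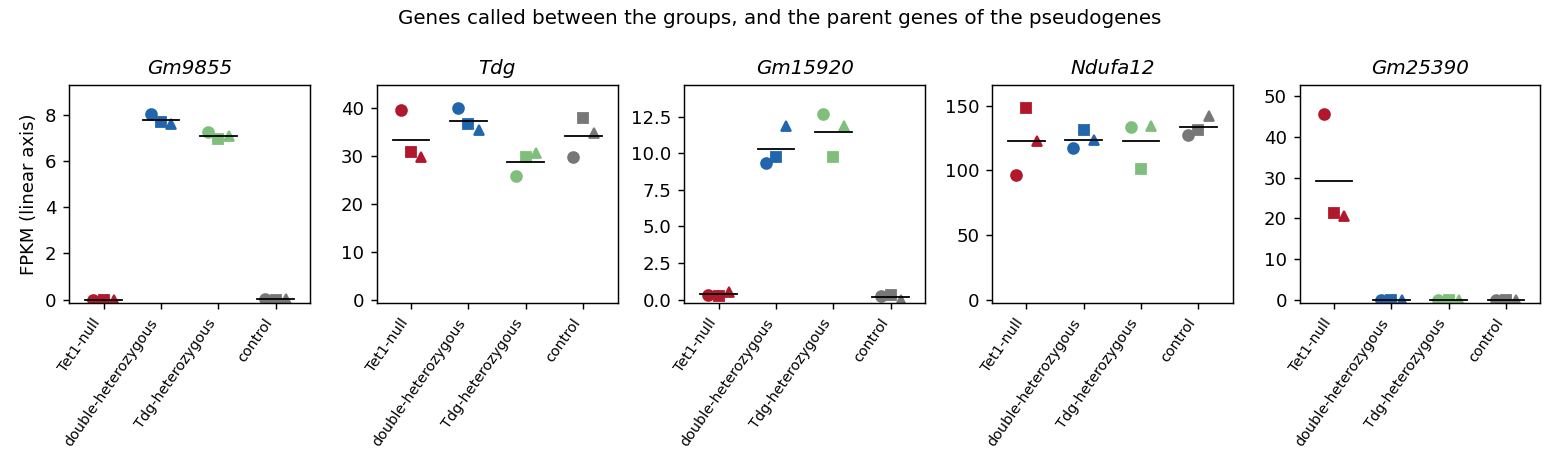
FPKM of the 3 called genes, and of the parent genes Tdg and Ndufa12, in each library of the 4 groups (linear axes that differ between panels; circle, square and triangle are libraries 0, 1 and 2, and the bar is the group mean). Gm9855 and Gm15920 lie near 0 in Tet1-null and control libraries, and Gm25390 appears in the Tet1-null libraries. Tdg and Ndufa12 overlap between Tet1-null and double-heterozygous libraries. Tdg is lower in Tdg-heterozygous (25.8 to 30.7 FPKM) than in double-heterozygous libraries (35.4 to 40.1 FPKM).

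Genes of DNA demethylation showed no called difference. Tet1 itself had 0.621, 0.199 and 0.163 FPKM in Tet1-null libraries and 0.127, 0.486 and 0.335 FPKM in double-heterozygous libraries, against 0.403 to 0.478 FPKM in controls. It stayed under the filter, and at this level the Tet1 genotype could not be checked from its RNA. Its paralogs were higher in level: Tet2 had 7.19, 4.85 and 5.61 FPKM in Tet1-null and 7.49, 5.17 and 4.85 FPKM in double-heterozygous libraries. Tet3, the most abundant of the family, had 20.7, 12.7 and 15.7 FPKM in Tet1-null and 15.8, 16.1 and 17.6 FPKM in double-heterozygous libraries. The log2 differences were 0.02 (SE 0.227) for Tet2 and -0.03 (SE 0.186) for Tet3. Both groups overlapped for either gene.

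Of 17 tested members of a list of demethylation and base excision repair genes, 7 had a positive and 10 a negative difference, and 0 were called. The median log2 difference was -0.03, against -0.02 over all genes tested. Among them were Mbd4, a glycosylase acting on G:T mismatches (-0.10, SE 0.256), Smug1, a uracil glycosylase (-0.10, SE 0.132), and Polb, the polymerase of base excision repair (0.02, SE 0.300). Of 13 genes of DNA methylation, 5 were higher and 8 lower in value, with a median of -0.03 and 0 called. The maintenance methyltransferase Dnmt1 differed by -0.07 (SE 0.215), its partner Uhrf1 by -0.03 (SE 0.255), and the de novo methyltransferases Dnmt3a and Dnmt3b by 0.20 (SE 0.251) and -0.06 (SE 0.321). Apc differed by 0.00 (SE 0.232).

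Imprinted genes and genes hypermethylated in colorectal tumours also centred near 0, and their methylation in these adenomas is not given by these RNA values. Of 20 imprinted genes tested, 13 had a positive and 7 a negative difference (median 0.04), with 0 called. Of 27 genes known from CpG island hypermethylation in colorectal tumours, 14 had a positive and 13 a negative difference (median 0.02), with 0 called.

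Tet1 and Tdg lie 19.8 Mb apart on chromosome 10, so genes near them were set beside the rest of that chromosome. Within 5 Mb of Tdg, 158 genes were tested, of which 2 did not overlap in the higher (1.27%) and 4 in the lower direction (2.53%). Their median log2 difference was -0.02. Within 5 Mb of Tet1, 52 genes were tested, with 3 higher (5.77%) and 1 lower (1.92%) that did not overlap (median -0.01). Elsewhere on chromosome 10 there were 6 higher (1.3%) and 14 lower (3.03%) among 462 tested (median -0.02). Over all genes tested the shares were 1.56% and 2.38%. None of the genes within either window was called.

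A few genes of chromosome 10 stood apart without being called. Hal, which encodes histidine ammonia-lyase and lies 10.9 Mb from Tdg, had 0.0787, 0 and 0.149 FPKM in Tet1-null libraries and 2.21, 1.19 and 0.542 FPKM in double-heterozygous libraries (log2 difference -1.04, SE 0.246, unadjusted p = 0.00171, adjusted p = 1, limma). Its level was 1.28 to 1.59 FPKM in Tdg-heterozygous libraries and at most 0.0747 FPKM in controls, the same order of groups as for the pseudogenes. Mical1, an actin-oxidising enzyme gene near Gm9855, had 9.85, 9.42 and 10.5 FPKM in Tet1-null and 15.8, 12.6 and 14.2 FPKM in double-heterozygous libraries (-0.48, SE 0.148). Psap, which encodes a lysosomal sphingolipid activator precursor and lies in the Tet1 window, had 305.3, 238.0 and 301.1 FPKM in Tet1-null libraries. The double-heterozygous libraries had 202.4, 223.0 and 216.8 FPKM of Psap (0.39, SE 0.136).

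**Figure D2:**
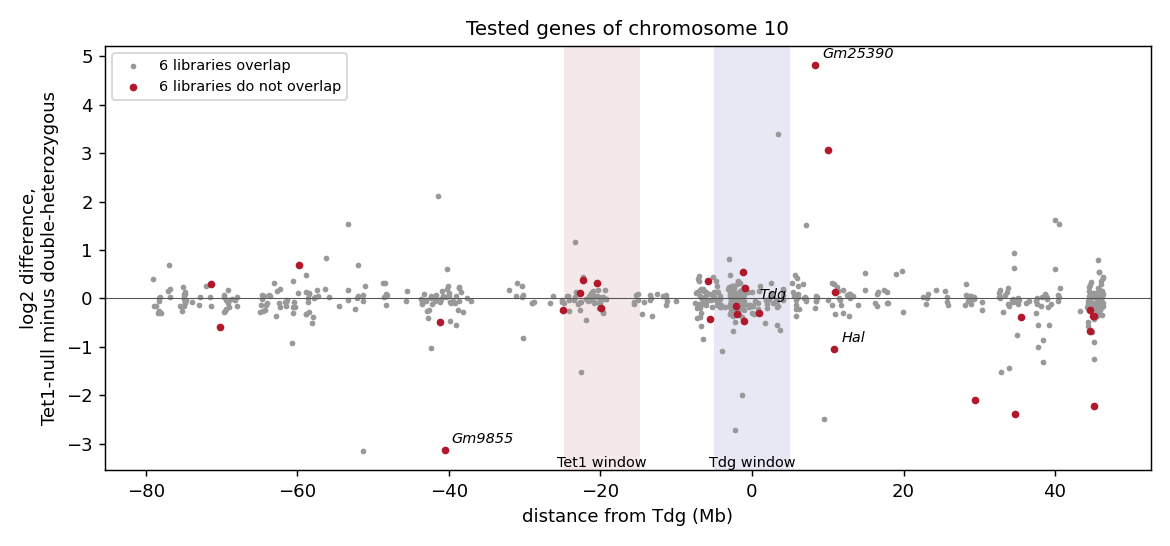
Log2 difference of each tested gene of chromosome 10, Tet1-null minus double-heterozygous, against its distance from Tdg in Mb, with the 5 Mb windows around Tet1 and Tdg shaded. Genes whose 6 libraries do not overlap are red. Most genes lie near 0 in both windows, and Gm25390, Gm9855 and Hal lie outside them.

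List by list, genes of antigen presentation and of the interferon response were higher in value in Tet1-null than in double-heterozygous adenomas. Paneth cell genes were lower. No member of these lists was called, so the lists are described by their values. With library weights, members of the class I and interferon lists were called, H2-K1, H2-D1, H2-T22, B2m and Isg15 among them. That fit gave Tet1-null library 2 a weight of 5.25, so these calls rest mainly on 1 library. Over all tested genes, 45.9% had a positive and 54.1% a negative difference. Of 27 tested genes of MHC class I molecules and their peptide loading, 27 had a positive difference, with a median of 0.54. The same held for 45 of 45 type I interferon response genes (median 1.01), 15 of 15 interferon-induced GTPase genes (1.08), 9 of 9 MHC class II genes (0.86) and 22 of 22 macrophage and monocyte genes (0.50). Of 18 Paneth cell genes, 17 had a negative difference (median -1.67). The lists overlap in part, their members share cells and libraries, and none of these counts is a test.

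**Figure D3:**
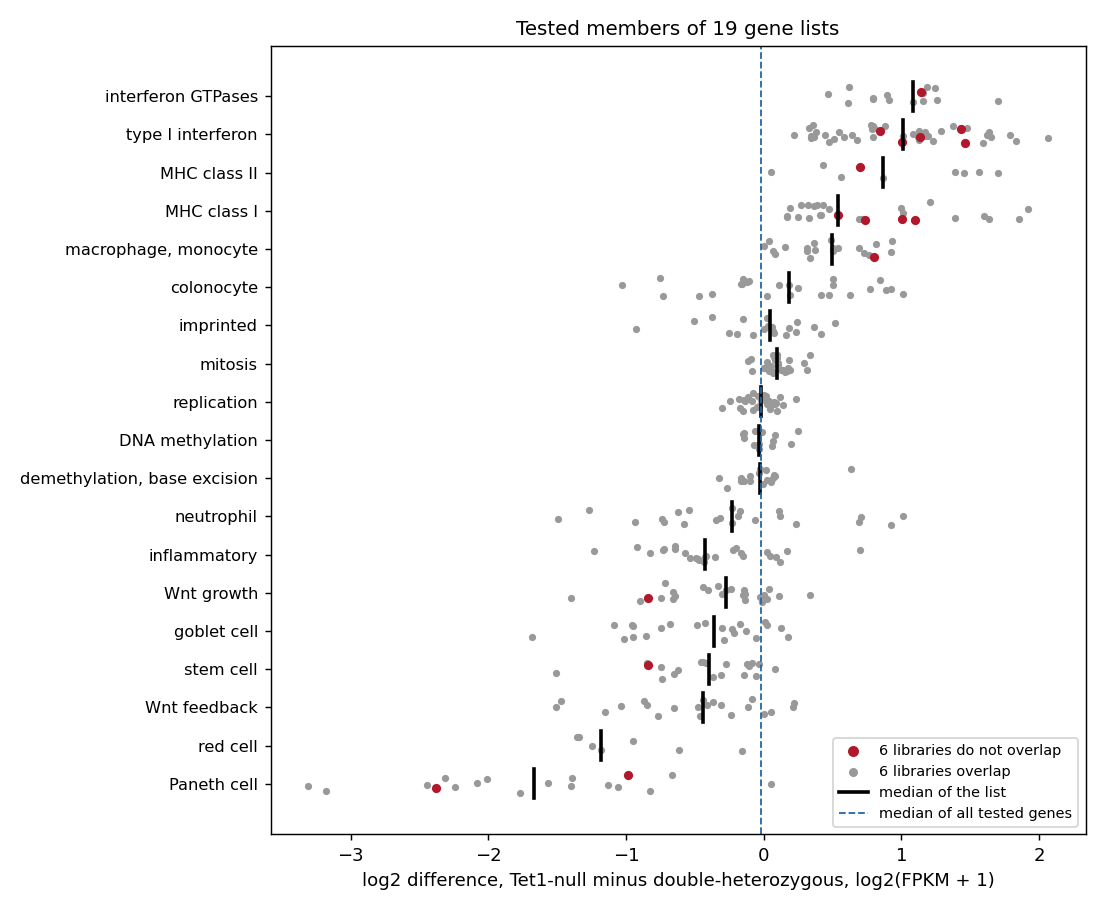
Log2 difference, Tet1-null minus double-heterozygous, of each tested member of 19 gene lists (points), with the list median (black bar) and the median of all tested genes (dashed line, -0.02). Interferon and MHC lists lie to the right of the dashed line and Paneth cell genes to its left, and most members of every list overlap between the groups (grey).

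MHC class I molecules present peptides from inside the cell to CD8 T cells. Their heavy chains, the light chain B2m, the immunoproteasome and the Tap transporters are induced by interferons. The heavy chain gene H2-K1 had 414.6, 277.4 and 829.0 FPKM in Tet1-null libraries and 231.6, 197.7 and 210.8 FPKM in double-heterozygous libraries. The lowest Tet1-null library lay above the highest double-heterozygous one (means 507.0 ± 287.2 and 213.4 ± 17.1 FPKM, SD, 3 libraries each). The log2 difference was 1.10 (SE 0.335, unadjusted p = 0.00828, adjusted p = 1, limma). Tdg-heterozygous libraries, at 353.2, 235.3 and 356.3 FPKM, overlapped the Tet1-null ones, and controls lay at 200.9 to 249.3 FPKM. H2-D1 had 381.4, 344.6 and 717.7 FPKM in Tet1-null and 311.5, 175.4 and 211.3 FPKM in double-heterozygous libraries (1.01, SE 0.360). These 2 classical heavy chains carry most of the peptides presented in C57BL/6 mice.

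Non-classical heavy chains were lower in level. H2-T22, recognised by some gamma delta T cells, had 19, 17.1 and 30.9 FPKM in Tet1-null and 12.6, 11.4 and 13.7 FPKM in double-heterozygous libraries (0.74, SE 0.224). H2-M3, which presents formylated peptides, had 5.48, 4.90 and 7.04 FPKM in Tet1-null and 3.37, 3.32 and 4.27 FPKM in double-heterozygous libraries (0.54, SE 0.179). H2-K1, H2-D1, H2-T22 and H2-M3 are the 4 of 27 list members (14.8%) whose groups did not overlap, where 1.56% of all genes did so in this direction. In each of the 4 the highest library was Tet1-null library 2. Class I genes are close paralogs, and reads shared between them make single levels uncertain.

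In the other 23 members the groups overlapped, and in those that follow Tet1-null library 1 lay at or near the double-heterozygous level. B2m had 1086.8, 266.4 and 1887.3 FPKM in Tet1-null and 212.0, 340.8 and 270.6 FPKM in double-heterozygous libraries (1.60, SE 0.634). Nlrc5, the transactivator of class I genes, had 10.3, 0.679 and 20.0 FPKM in Tet1-null libraries and 1.01, 1.05 and 1.05 FPKM in double-heterozygous libraries (1.85, SE 0.801). Tap1, a subunit of the peptide transporter, had 21.9, 7.66 and 51.3 FPKM in Tet1-null and 11.1, 6.09 and 5.79 FPKM in double-heterozygous libraries (1.39, SE 0.595). The immunoproteasome subunit Psmb9 had 23, 10.4 and 67.9 FPKM in Tet1-null and 9.63, 8.89 and 13.6 FPKM in double-heterozygous libraries (1.21, SE 0.522). The chaperones Calr, Canx and Pdia3, which also serve other proteins, had the smallest differences of the list along with Psme1. Without Tet1-null library 2, the list median was 0.38, and 26 of 27 differences remained positive. Without each of the other libraries it lay between 0.49 and 0.80, with 27 of 27 positive, and with library weights it was 0.98.

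**Figure D4:**
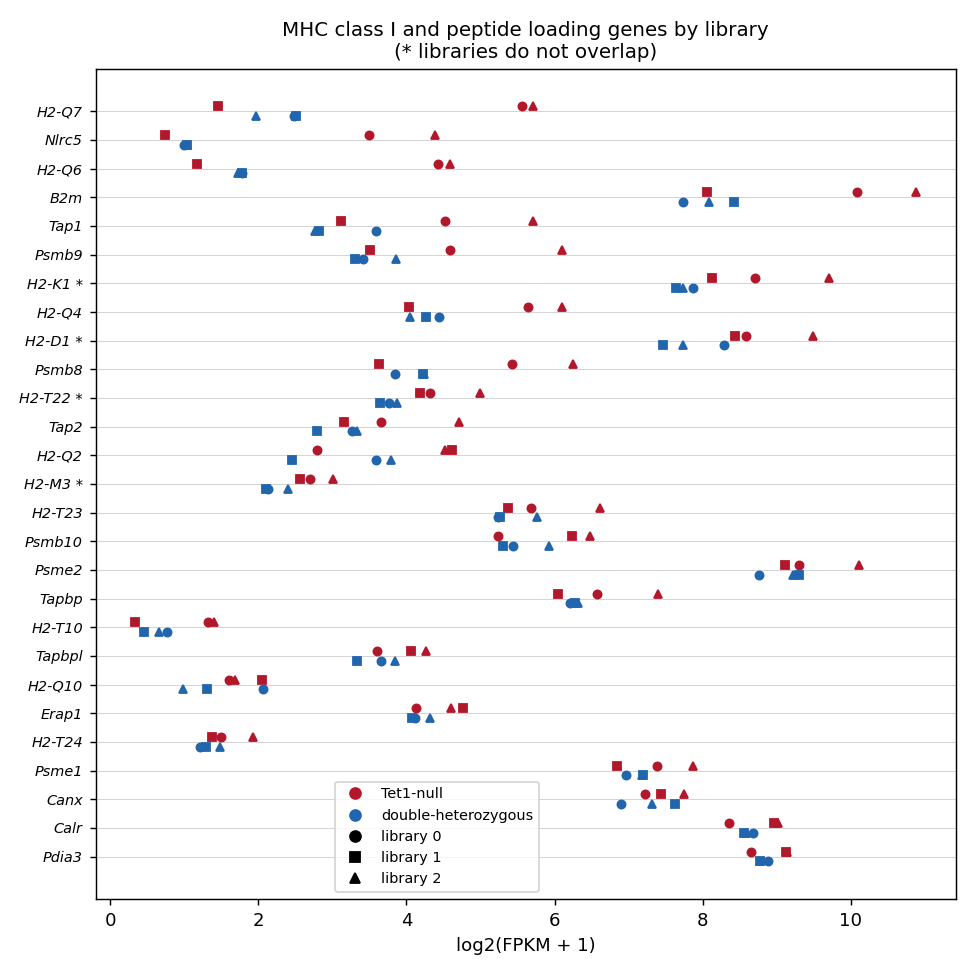
Log2(FPKM + 1) of the 27 tested MHC class I and peptide loading genes in the 3 Tet1-null (red) and 3 double-heterozygous (blue) libraries, ordered by their log2 difference. Tet1-null library 2 (triangle) is high and library 1 (square) often lies among the double-heterozygous libraries, and the 4 genes with an asterisk do not overlap.

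The promoters of these 4 genes share a stretch that carries the core letters of an interferon regulatory element. The letters AANNGAAA, or TTTCNNTT on the other strand, were searched in the 250 bases before the RefSeq start (GRCm38.p6), with one entry per gene. The stretches of the 3 genes below run 5′ to 3′ on the gene's strand, with the match in capitals. They lie at chr17:34000382-34000453 (minus strand, H2-K1), chr17:36042878-36042949 (minus strand, H2-T22) and chr17:37270117-37270188 (plus strand, H2-M3).
H2-K1: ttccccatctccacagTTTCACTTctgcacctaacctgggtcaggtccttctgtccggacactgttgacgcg
H2-T22: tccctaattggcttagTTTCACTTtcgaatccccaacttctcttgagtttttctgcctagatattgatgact
H2-M3: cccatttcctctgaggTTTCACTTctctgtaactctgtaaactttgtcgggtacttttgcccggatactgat

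H2-D1 holds the same 8 letters, 150 bases before its start, and the match begins 90, 191 and 101 bases before the start in H2-K1, H2-T22 and H2-M3. A match was found in 12 of 22 class I list promoters in the table (54.5%), 20 of 33 of the type I interferon list (60.6%) and 10 of 10 of the GTPase list. It was found in 3 of 12 Paneth cell promoters, in 1632 of the 10178 promoters of genes tested (16%) and in 5828 of all 27025 promoters (21.6%). A match is a description of the letters, not of a factor bound there.

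Type I interferon response genes encode antiviral effectors and sensors. Their values rested mainly on Tet1-null library 2 and, to a smaller extent, library 0. The score of a list in a library is the mean of its members' log2(FPKM + 1) minus the mean of the controls. For the type I list it was 0.71, -0.27 and 2.19 in Tet1-null libraries 0, 1 and 2, and 0.10, -0.20 and -0.26 in double-heterozygous libraries. The GTPase list scored 1.03, -0.69 and 1.97 in Tet1-null and -0.51, -0.02 and -0.16 in double-heterozygous libraries. It scored 0.56, 0.99 and -0.90 in Tdg-heterozygous libraries and -0.72, 0.70 and 0.02 in controls, which overlap the Tet1-null range. Isg15, a ubiquitin-like modifier, had 23.3, 3.90 and 127.9 FPKM in Tet1-null and 8.63, 5.07 and 2.57 FPKM in double-heterozygous libraries (2.07, SE 0.945, adjusted p = 1, limma). Irf7, a transcription factor that amplifies the response, had 26.6, 14.5 and 129.9 FPKM in Tet1-null and 28.2, 9.09 and 13.6 FPKM in double-heterozygous libraries (1.23, SE 0.698).

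In 5 of the 45 genes (11.1%) the groups did not overlap, all in the higher direction, where 1.56% of all genes lay. These were Ifi27, Ifi27l2a, Trim30a, Oas1g and Parp12. Ifi27, a small mitochondrial protein gene, had 71.8, 54.1 and 125.5 FPKM in Tet1-null and 32, 34.1 and 53.5 FPKM in double-heterozygous libraries (1.00, SE 0.353, unadjusted p = 0.0176). Parp12, an ADP-ribosyltransferase gene, had 20.5, 22.6 and 45.8 FPKM in Tet1-null and 19, 10.7 and 16.5 FPKM in double-heterozygous libraries (0.84, SE 0.361). Of the GTPase genes, 1 of 15 (6.67%) did not overlap in this direction. This was Irgm1, which acts in defence against intracellular pathogens. It had 28.5, 19.8 and 74.4 FPKM in Tet1-null and 13.4, 15.2 and 17.5 FPKM in double-heterozygous libraries (1.14, SE 0.482).

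Library 2 of the Tet1-null group decided the size of these values. Without it, the median of the type I list was 0.30 with 39 of 45 positive, and that of the GTPase list 0.40 with 14 of 15 positive. Without Tet1-null library 1, the medians were 1.50 and 1.76, and with library weights 2.06 and 2.01. Tet1-null library 2 was also the only one of the 6 with Xist, the RNA of the inactive X chromosome of females, at 357.2 FPKM against at most 0.285 FPKM in the other 5. The 4 libraries of the other groups with Xist above 200 FPKM had type I scores of -0.04 to 0.39. Within the 6 libraries compared, sex and library cannot be told apart, and a part of sex in these values was not tested. An interferon-induced gene outside the list, Ifitm3, was not highest in library 2. It had 1696, 161.9 and 1182 FPKM in Tet1-null and 562.7, 1378 and 829.5 FPKM in double-heterozygous libraries (-0.33, SE 0.834). Of 18 further interferon gamma response genes, 15 had a positive difference (median 0.32). Among them Socs1, a feedback inhibitor of this signalling, did not overlap, with 5.50, 4.28 and 7.35 FPKM in Tet1-null and 2.96, 4.12 and 3.29 FPKM in double-heterozygous libraries (0.57, SE 0.234). Socs1 made up 5.56% of these genes, against 1.56% of all genes in this direction.

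MHC class II genes present peptides from outside the cell and are expressed mainly by macrophages, dendritic cells and B cells. In this list, Tet1-null libraries 0 and 2 were high. H2-Aa had 203.6, 60.2 and 126.9 FPKM in Tet1-null and 14.1, 34.8 and 114.2 FPKM in double-heterozygous libraries (1.56, SE 0.668). The invariant chain gene Cd74 had 294.7, 63.8 and 229.6 FPKM in Tet1-null and 22.4, 66.6 and 135.1 FPKM in double-heterozygous libraries (1.45, SE 0.742). Only Ctss, a lysosomal protease gene, did not overlap, with 127.7, 174.2 and 165.4 FPKM in Tet1-null and 115.7, 62.7 and 117.1 FPKM in double-heterozygous libraries (0.70, SE 0.317). Ctss made up 11.1% of the tested list, against 1.56% of all genes in this direction.

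Macrophage and monocyte genes were also high in Tet1-null libraries 0 and 2 (scores 0.70 and 0.40, against -0.56 in library 1 and -0.51 to -0.06 in double-heterozygous libraries), and their part in the class II values was not tested. The summed level of the 22 tested markers ranged from 434.0 to 1872 FPKM in Tet1-null and from 560.2 to 915.3 FPKM in double-heterozygous libraries, which overlap. Ccr2, the chemokine receptor of inflammatory monocytes, did not overlap, with 3.12, 4.08 and 2.81 FPKM in Tet1-null and 1.17, 1.85 and 1.46 FPKM in double-heterozygous libraries (0.80, SE 0.220, unadjusted p = 0.00465, adjusted p = 1, limma). It was the only such gene of the list (4.55%), against 1.56% of all genes in this direction. The lysosomal marker Cd68 had 28.7, 7.51 and 26.3 FPKM in Tet1-null and 19.6, 16.6 and 8.91 FPKM in double-heterozygous libraries (0.32, SE 0.476). The receptors Mrc1 (0.00, SE 0.386), Itgam (0.04, SE 0.535) and Cd14 (0.08, SE 0.503) differed least. Without Tet1-null library 0 the median of the list was 0.16 with 17 of 22 positive. In bulk tissue, fewer cells of a type and less RNA per cell cannot be told apart.

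Paneth cells are secretory cells of the small intestinal crypt that release antimicrobial peptides, and their genes are active in Apc-mutant adenomas of the colon. Lysozyme, encoded by Lyz1, had 214.0, 123.4 and 779.0 FPKM in Tet1-null libraries and 2032, 1214 and 1198 FPKM in double-heterozygous libraries. The groups did not overlap. Controls lay at 1295 to 1826 FPKM and the Tdg-heterozygous libraries at 1317, 650.6 and 526.9 FPKM. The log2 difference of Lyz1 between the groups compared was -2.38 (SE 0.593, unadjusted p = 0.00243, adjusted p = 1, limma). Its close paralog Lyz2, a gene of macrophages, ran the other way in value, with 487.0, 86.6 and 392.4 FPKM in Tet1-null and 56.8, 323.6 and 127.4 FPKM in double-heterozygous libraries (0.93, SE 0.778). Reads shared between these paralogs make their split uncertain.

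The alpha-defensin genes were widely spread. Defa24 had 108.1, 3.99 and 622.2 FPKM in Tet1-null and 1098, 879.4 and 260.0 FPKM in double-heterozygous libraries (-3.18, SE 1.48). Defa3 had 12.6, 0.848 and 53.1 FPKM in Tet1-null and 96.3, 329.2 and 40.6 FPKM in double-heterozygous libraries (-3.31, SE 1.29). Defa26 was low but did not overlap, with 0.586, 0 and 1.73 FPKM in Tet1-null and 2.44, 2.41 and 1.86 FPKM in double-heterozygous libraries (-0.99, SE 0.577). Mmp7, the metalloproteinase that activates defensins, had 335.3, 37.2 and 651.2 FPKM in Tet1-null and 623.4, 498.7 and 494.8 FPKM in double-heterozygous libraries (-1.40, SE 0.864). The bactericidal protein Ang4 had 29.9, 2.83 and 168.5 FPKM in Tet1-null and 136.1, 61.7 and 150.9 FPKM in double-heterozygous libraries (-2.01, SE 1.08). The exception by sign was Nupr1, a stress response gene at similar levels in both groups (0.05, SE 0.485).

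The Paneth values differed widely between the Tet1-null libraries. The list score was -1.68, -4.20 and -0.61 in Tet1-null libraries 0, 1 and 2, and -0.22, -0.19 and -0.96 in double-heterozygous libraries. In 2 of 18 members (11.1%) the groups did not overlap, where 2.38% of all genes did so in this direction. Without Tet1-null library 1, the median was -0.61 with 14 of 18 negative. Without library 2 it was -2.36 with 18 of 18 negative. With library weights it was -0.0498, with 9 of 18 negative.

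Wnt target genes were lower in value in 17 of 21 feedback regulators (median -0.44), 20 of 25 growth-related targets (-0.28) and 19 of 20 stem cell genes (-0.39), but this direction rested on 1 library. Notum, a secreted Wnt deacylase, had 273.3, 0.700 and 166.6 FPKM in Tet1-null and 49.8, 182.4 and 179.2 FPKM in double-heterozygous libraries (-1.47, SE 1.79). Axin2, a scaffold of the beta-catenin destruction complex, had 172.6, 9.98 and 96.1 FPKM in Tet1-null and 62.9, 129.1 and 128.0 FPKM in double-heterozygous libraries (-0.84, SE 0.954). The stem cell receptor Lgr5 had 13.6, 5.14 and 68.3 FPKM in Tet1-null and 53.8, 60.0 and 41.8 FPKM in double-heterozygous libraries (-1.51, SE 0.736). Tet1-null library 1 was lowest in all 3 genes.

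Without that library, the feedback median was 0.51 with 17 of 21 positive, the growth median 0.02 and the stem cell median 0.05 with 12 of 20 positive. With library weights these medians were 0.04, 0.10 and 0.04. Of the feedback, growth and stem cell lists, 0%, 4% and 5% did not overlap in the lower direction, against 2.38% of all genes. The one gene behind these shares was Slc12a2, an ion cotransporter gene of crypt cells. It had 67.2, 135.5 and 107.0 FPKM in Tet1-null and 210.3, 166.6 and 162.1 FPKM in double-heterozygous libraries (-0.84, SE 0.286, unadjusted p = 0.0146, adjusted p = 1, limma). Myc, a Wnt-driven growth gene, had 36.6, 21.5 and 53.9 FPKM in Tet1-null and 38.6, 40.0 and 37.2 FPKM in double-heterozygous libraries (-0.14, SE 0.271).

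Genes of differentiated epithelium varied between libraries more than between groups. Muc2, the main mucin of goblet cells, had 18.2, 1404 and 409.8 FPKM in Tet1-null and 743.9, 92.2 and 1160 FPKM in double-heterozygous libraries in its annotated entry (-0.95, SE 1.59). Tff3, a goblet cell peptide that aids mucosal repair, had 51.9, 1916 and 621.3 FPKM in Tet1-null and 519.6, 296.3 and 1937 FPKM in double-heterozygous libraries (-0.75, SE 1.21). The goblet list score was -2.59, 1.31 and -0.17 in Tet1-null and 0.27, -1.20 and 0.97 in double-heterozygous libraries. Its median of -0.36 was 0.51 without Tet1-null library 0 and -1.37 without library 1. The colonocyte median of 0.18 was 1.26 without Tet1-null library 0 and -0.67 without library 1. In Tet1-null library 1, goblet and colonocyte scores were the highest of the 6 and Wnt, stem and Paneth scores the lowest. Outside the 6, Tdg-heterozygous library 2 had scores of 0.93 (goblet), 1.19 (colonocyte), -1.87 (Wnt feedback), -0.845 (stem) and -2.13 (Paneth), with 0.141 for Wnt growth.

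**Figure D5:**
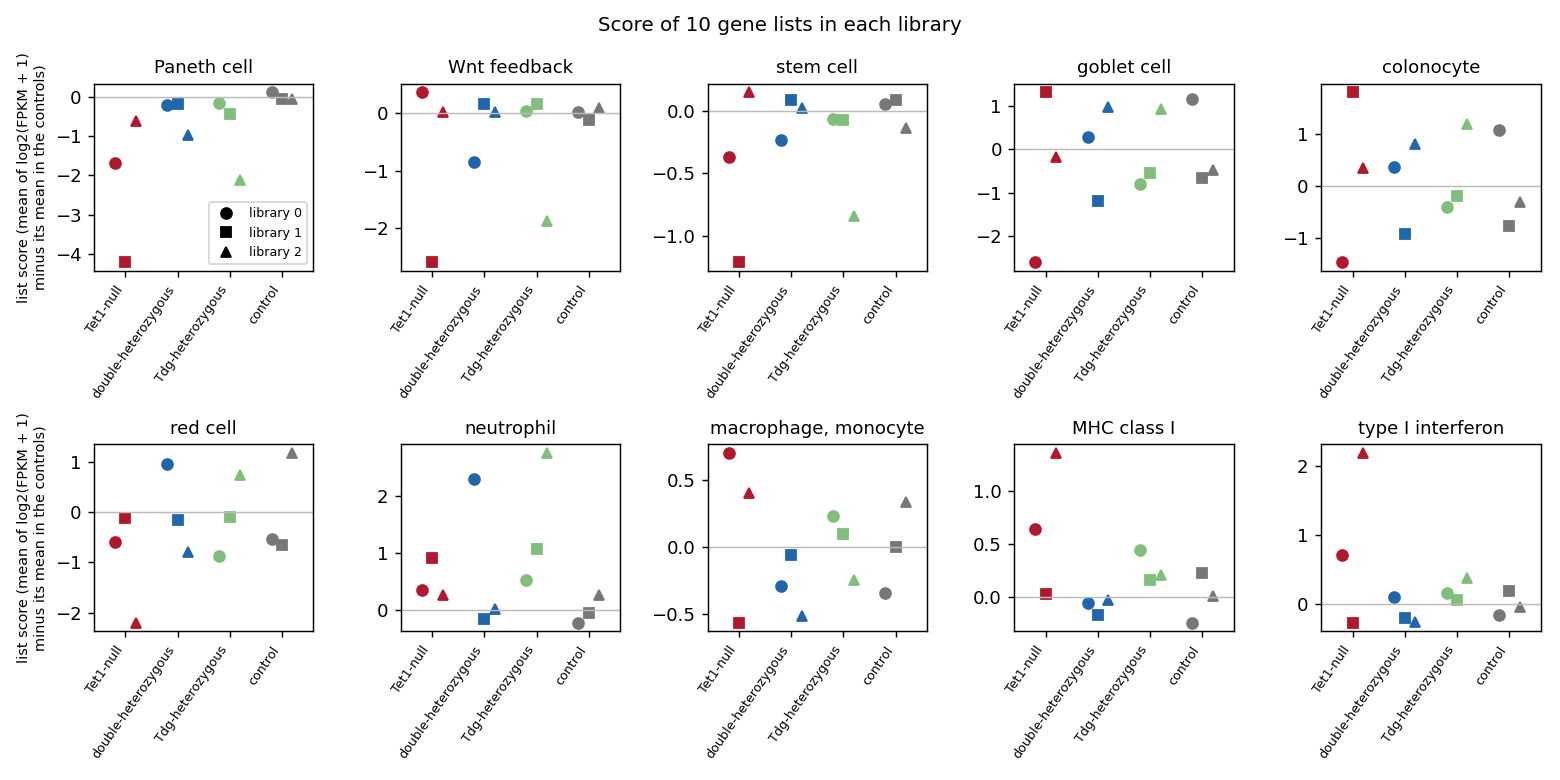
Score of 10 gene lists in each library (mean log2(FPKM + 1) of the tested members minus the mean of the controls; axes differ between panels) for Tet1-null, double-heterozygous, Tdg-heterozygous and control libraries. Tet1-null library 1 (square) is low for Paneth, Wnt and stem cell lists, Tet1-null library 2 (triangle) is high for MHC class I and interferon lists, and double-heterozygous library 0 (circle) is high for neutrophil genes. Tdg-heterozygous library 2 also scores low for Paneth, Wnt feedback and stem cell genes and high for neutrophil genes.

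Of the 6 libraries compared, double-heterozygous library 0 had the highest neutrophil score (2.30). Outside these 6, Tdg-heterozygous library 2 scored higher (2.77). S100a8, a neutrophil protein gene, had 197.2, 847.5 and 68.6 FPKM in Tet1-null and 1750, 123.4 and 195.9 FPKM in double-heterozygous libraries (-0.62, SE 1.18). Of 22 neutrophil genes 15 had a negative difference (median -0.23), and of 26 inflammatory cytokine and chemokine genes 20 (median -0.43). Without double-heterozygous library 0 these medians were 0.56 and 0.49, and with library weights 0.16 and 0.31. All 7 red cell genes had a negative difference (median -1.18). The beta-globin gene Hbb-bs had 103.1, 164.1 and 22.8 FPKM in Tet1-null and 487.9, 175.0 and 78.3 FPKM in double-heterozygous libraries (-1.35, SE 0.956). The red cell median was -0.43 without Tet1-null library 2 and -0.59 without double-heterozygous library 0.

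Proliferation and growth genes differed little. Of 30 DNA replication genes 13 had a positive and 17 a negative difference (median -0.02), and of 29 mitosis genes 24 were positive (median 0.10), with 0 not overlapping in both lists. Ribosomal protein genes, 77 tested, had a median of 0.05, p53 target genes 0.03, unfolded protein response genes 0.07 and lipid and sterol genes 0.04. Fibroblast and collagen genes had a median of 0.10, endothelial genes 0.04, and TGF-beta and BMP pathway genes -0.14. Smooth muscle genes had a median of 0.36 with 17 of 19 positive, which was -0.25 without Tet1-null library 1 and -0.24 with library weights. The cell type and pathway lists not described here had medians between -0.52 and 0.49.

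Outside the lists, the named protein-coding genes with the smallest p were not called. Hebp1, a heme-binding protein gene, had 4.17, 3.17 and 2.90 FPKM in Tet1-null and 1.13, 1.80 and 1.33 FPKM in double-heterozygous libraries (0.87, SE 0.191, unadjusted p = 0.00108, adjusted p = 1, limma). C3, the central complement component, had 23.2, 20.2 and 36.6 FPKM in Tet1-null and 16.5, 8.17 and 7.47 FPKM in double-heterozygous libraries (1.27, SE 0.382). Clec2d, a ligand of a natural killer cell receptor, had 38.2, 49.1 and 48.2 FPKM in Tet1-null and 19, 27.7 and 35.2 FPKM in double-heterozygous libraries (0.74, SE 0.218). The killer cell lectin-like receptor gene Klrb1b stayed near 1 FPKM, with 1.80, 0.816 and 1.50 FPKM in Tet1-null and at most 0.300 FPKM in double-heterozygous libraries (0.88, SE 0.249).

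Among the lower ones, Mpp3, a scaffold protein gene, had 5.92, 5.97 and 4.68 FPKM in Tet1-null and 13.9, 9.22 and 10.8 FPKM in double-heterozygous libraries (-0.90, SE 0.237, adjusted p = 1, limma). Cplx2, which regulates vesicle fusion, had 8.66, 2.90 and 4.58 FPKM in Tet1-null and 18.1, 9.85 and 13.2 FPKM in double-heterozygous libraries (-1.27, SE 0.362). Chodl, a membrane lectin gene, had 3.65, 8.46 and 1.64 FPKM in Tet1-null and 16.6, 10.5 and 12 FPKM in double-heterozygous libraries (-1.50, SE 0.422). The ubiquitin ligase gene Rnf157 had 5.89, 3.85 and 4.82 FPKM in Tet1-null and 8.91, 10.0 and 12.2 FPKM in double-heterozygous libraries (-0.96, SE 0.276). In these 8 genes the groups did not overlap, where 1.56% of all genes did so in the higher and 2.38% in the lower direction. They were picked for a small p in this same comparison, so their separation follows largely from that choice and is no support.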

How the data were processed

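RNA from colonic adenomas was sequenced in 12 libraries, 3 per genotype. Per the labels' protocols, RNA was extracted with TRIzol, 500 ng of it went into TruSeq libraries, and single-end reads of 75 nt were aligned to mm10 with TopHat2. The submitters' processing notes also name Cufflinks and Cuffdiff. Versions, gene annotation and how reads with several matches were treated: not given in the sources used here. The table holds FPKM, computed and deposited by the authors, and the unit is read from the name of the table. In the 6 libraries compared, FPKM summed to 663551 to 872289 and 13873 to 14384 genes reached 1 FPKM.

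Columns give a library's group and a number from 0 to 2, which is used here to name it and not tied to a labelled replicate. Gene IDs were matched to GENCODE M21 (25119 of 25705). Values were analysed as log2(FPKM + 1) with a pseudocount of 1, which understates changes of low genes. A model of 4 group means over all 12 libraries was fitted with limma 3.58.1 in R 4.3.3 with a variance trend, and p-values were adjusted over the 15150 tested genes. The median SE was 0.262. Pseudogenes were matched with blastn 2.17.0, and promoters come from RefSeq (GRCm38.p6).

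The groups compared, the 45 gene lists and the rule for naming genes were chosen with earlier results of these data known. The rule takes called genes, the 12 smallest p-values in each direction among properly named genes, methylation genes, and from each list the 3 highest in level and up to 3 with the largest statistic. It also takes Gm9855 and Gm15920, known from an earlier analysis to mark the libraries with the N151A allele. It named 270 genes, 269 of them tested. Other genes, such as Gm24241, Psap, Mical1, Ifitm3, Tff3 and Eif2s3y, were named after their values were seen. Muc2 stands for 3 gene IDs. The alternatives given in the closing section cover pseudocount, filter, scaling, variance model, and libraries left out.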

Additional observations from a re-analysis of the deposited data

How the results depend on the processing

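The 3 called genes, Gm9855, Gm15920 and Gm25390, were called again under pseudocounts of 0.1 and 5, 3 scalings (same total, median-ratio, quantile), a robust prior and without each double-heterozygous library. Of other settings, 5 genes were called without a filter, 7 with the 6 libraries alone, 5 without Tet1-null library 1 and double-heterozygous library 0 together, and 82 with library weights (65 higher, 17 lower), all of which include these 3. In that weighted fit Tet1-null library 2 weighed 5.25 and library 1 0.256, and H2-K1, H2-D1, H2-T22, B2m and Isg15 were called. With a mean of at least 5 FPKM 1 gene was called, and with protein-coding genes only 0, where 187 had an unadjusted p under 0.05 in limma. Leaving out 1 library gave 3 to 5 called genes, and 533 to 1170 higher and 692 to 1498 lower genes that did not overlap. These 2 counts were 509 and 581 without a filter, 139 and 225 at a mean of at least 5 FPKM, and 1875 and 2101 without the 2 libraries together, where fewer libraries or other genes enter. Library weights moved the median of the Paneth list to -0.0498, of the type I interferon list to 2.06, of Wnt growth to 0.10, of further interferon gamma genes to 0.83, of B and plasma cells to 1.11, of T and natural killer cells to 0.93 (-0.49 at a mean of at least 5 FPKM), of mast cells and eosinophils to 1.78, of p53 targets to 0.30 and of unfolded protein genes to 0.35. Without single libraries the lipid and sterol median ran from -0.32 to 0.28. The cause of these shifts was not tested.

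Same-numbered libraries of both groups correlated at -0.34, -0.51 and -0.00 in their deviations from the group means. Differently numbered libraries correlated at -0.13 to 0.49. With 3 libraries a group, these values cannot decide whether the column numbers pair the libraries. With the column number as a replicate block 3 genes were called, the same 3. No fragment counts are in the table, so depth is unknown and no counting error can be given. With 3 libraries a group, 1 library can set a list's direction.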

Other observations

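Immunoglobulin variable segment genes, which B cell clones combine in different ways, were higher in value in Tet1-null libraries for 84 of 131 tested genes (median log2 difference 0.39). Without Tet1-null library 2, the median was -0.15. The groups did not overlap in 7 higher (5.34%) and 3 lower (2.29%) segments, against 1.56% and 2.38% of all genes. Ighv1-76 had 14.0, 6.18 and 6.52 FPKM in Tet1-null libraries and 1.36, 1.81 and 0.922 FPKM in double-heterozygous libraries (1.99, SE 0.531). Ighv1-75 had 3.44, 1.59 and 3.65 FPKM in Tet1-null and at most 0.302 FPKM in double-heterozygous libraries (1.66, SE 0.341). Ighv9-1 ran the other way, with 0.516, 0 and 0.489 FPKM in Tet1-null and 7.09, 10.6 and 3.19 FPKM in double-heterozygous libraries, and was listed at 0 in the 3 controls (-2.48, SE 0.432, adjusted p = 0.696, limma). The IgA constant gene Igha had 532.5, 492.8 and 1503 FPKM in Tet1-null and 797.2, 474.1 and 473.7 FPKM in double-heterozygous libraries.

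Of 9 tested T and natural killer cell genes, 7 had a positive difference (median 0.27), the exceptions being Trac and Trbc2. Cd3g, a subunit of the T cell receptor complex, had the largest, with 4.46, 1.68 and 9.04 FPKM in Tet1-null and 0.829, 2.43 and 0.737 FPKM in double-heterozygous libraries, which overlap. Klrd1, a receptor subunit of natural killer cells, had 1.85, 1.73 and 2.89 FPKM in Tet1-null and 0.401, 0.319 and 0.735 FPKM in double-heterozygous libraries (1.08, SE 0.513). The gamma delta T cell receptor gene Tcrg-C1 had 1.02, 0.413 and 1.30 FPKM in Tet1-null and 0.280, 0.273 and 0 FPKM in double-heterozygous libraries (0.67, SE 0.293). The alpha beta T cell receptor gene Trac had 14.6, 1.87 and 17.1 FPKM in Tet1-null and 24.2, 18.7 and 21 FPKM in double-heterozygous libraries (-1.25, SE 0.692). The groups did not overlap in Klrd1 and Tcrg-C1 (22.2% of the list, higher) and in Trac (11.1%, lower). Over all genes these shares were 1.56% and 2.38%. All 3 genes had an adjusted p of 1 (limma). Only 9 of the 33 list members measured passed the filter, so these shares rest on few genes, and Tcrg-C1 lay at 1.30 FPKM or below.

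Of 458 antisense genes 33.0% and of 257 lincRNA genes 29.6% had a positive difference (medians -0.10 each). The share was 51.3% of 115 miRNA genes (median 0.01), 51.7% of 89 snRNA genes (0.02) and 50.6% of 172 snoRNA genes (0.02), against 46.8% of 13004 protein-coding genes (median -0.01). The strand setting of the authors' counting is not given in the sources used here. Eif2s3y, a Y-linked gene, stood at 4.36 FPKM in Tet1-null library 0 against 72.2 FPKM in library 1, while Ddx3y, another Y-linked gene, had 17.8 and 17.5 FPKM in these libraries.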
